A study of Mus musculus with 3 samples.

Results

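The distal stretch of mouse chromosome 7 that lies 2 to 10 Mb from the beta-globin viewpoint, on its lower-coordinate side, was examined for its contacts with that viewpoint. In mm9 it runs from chr7:100976215 up to, but not including, 108976215, and the viewpoint is placed at 110976215. All listed DpnII fragments whose midpoint falls in this interval are members, which gives 6248 of the 48123 listed fragments (12.98%). The rule itself uses position and no counts, but it takes listed fragments only. How fragments came to be listed is not given, so whether reads played a part in the listing cannot be told.

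The libraries are next-generation Capture-C, which fixes chromatin, cuts and religates it, and pulls out with oligonucleotides the ligation products of chosen viewpoint fragments. There is 1 group of 3 samples: erythroid cells of mixed strain, grown from fetal livers taken at E12.5, homozygous for a combined deletion of the beta-globin enhancers HS2 and HS3. For 6 days the cells of individual livers were grown with Epo, SCF and dexamethasone. CD117-positive cells were then taken, left for 6 h and differentiated for 24 h, a stage the labels call late erythroid. All 3 samples carry the deletion, and no wild-type profile was analysed here, so every comparison is between positions within the deletion profile. The contacts hold no expression data, so the labelled cell type was not checked against marker genes.

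The beta-globin genes are transcribed under the locus control region (LCR), a distal cluster of DNase-hypersensitive elements that includes HS2 and HS3. In the gene order of the RefSeq table for GRCm38 the adult genes precede the embryonic gene Hbb-y, and the LCR is known to lie beyond Hbb-y, so the stretch examined here is on the side away from it. A captured promoter contacts sequence nearby most often, and contact falls with distance. At distances of megabases, chromatin contacts are known to vary between broad active and inactive stretches of a chromosome, and to rise locally at single places. Which genes lie at the positions below was not analysed here, since the gene table is of another build than the deposited positions. No sequence of that build was used either, so positions are given without sequence.

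The 3 count columns of the deposited table carry no sample names of their own, so they go by their place in the file, from the first to the third. They held 49433, 49247 and 37382 reads on chromosome 7. The labels number 3 replicates and speak of individual livers without tying a sample to one, so part of the spread over the columns, and of every p-value resting on it, may be technical. In the distal stretch a count of 0 allows up to 0.0799%, 0.0738% and 0.101% of its reads in the 3 columns. These limits, and the intervals below, cover counting error only.

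The distal stretch held 3753 reads in the first column, 4067 in the second and 2983 in the third. As a share of all chromosome 7 reads these made up 7.59% of the first column, with an exact 95% binomial interval of 7.36 to 7.83. The second column was at 8.26% (8.02 to 8.50) and the third at 7.98% (7.71 to 8.26), and the mean was 7.94% ± 0.33 (SD, n = 3). The first column was lowest and its interval did not overlap that of the second. Listed fragments covered 3255 of the 8000 kb (40.7%). Contact density is given as reads per listed kb per 100000 chromosome 7 reads of the same column. It was 2.33, 2.54 and 2.45 in the 3 columns, or 2.44 ± 0.10 (SD, n = 3). Per kb of sequence, with unlisted fragments taken as having no reads, it was 0.993 ± 0.042.

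Most members carried few reads. Summed over the columns, 1068 fragments (17.1%) had 0 reads, 2258 (36.1%) had 1 read, 2599 (41.6%) had 2 to 4, 294 (4.71%) had 5 to 9 and 29 (0.464%) had 10 or more. Only 197 fragments (3.15%) had reads in all 3 columns, whereas 4017 (64.3%) had reads in exactly 1 column. Contacts are therefore described over windows rather than fragment by fragment.

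Density fell with fragment length while the count per fragment changed little. The members were put into 4 length classes of nearly equal number. The shortest class, 16 to 221 bp long, had 1.14 ± 0.10 reads per fragment per 100000 chromosome 7 reads (SD, n = 3), and the longest class, 698 to 3717 bp long, had 1.33 ± 0.14. The per-fragment values of the columns overlapped between these classes. Per listed kb the shortest class was at 8.70 ± 0.77 and the longest at 1.20 ± 0.12, without overlap. A density per listed kb thus moves with the fragment lengths of a window as well as with its contacts.

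**Figure D1:**
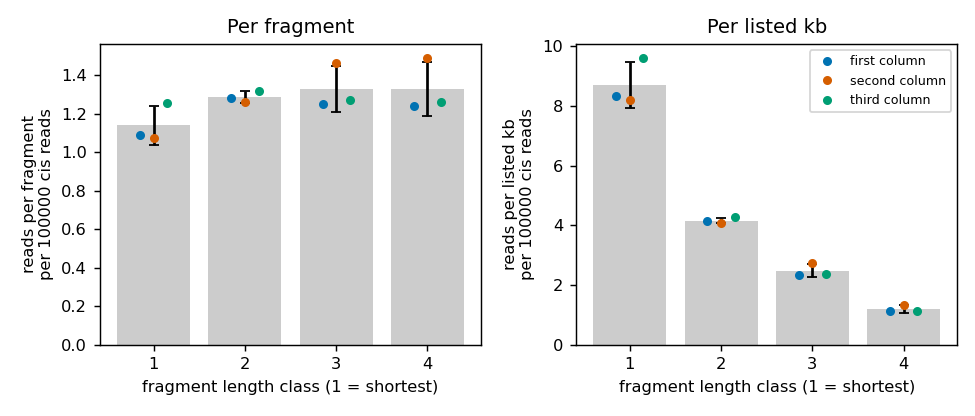
Reads by fragment length class (class 1 is the shortest), per fragment on the left and per listed kb on the right, both per 100000 chromosome 7 reads. Bars are means of 3 columns, error bars are SD and points are the columns; the counts per fragment lie between 1.07 and 1.49 while the density falls from 8.70 to 1.20.

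The first comparison set the distal stretch against the neighbouring 1 to 2 Mb of the same side. The neighbouring stretch had a density of 7.37 ± 0.15 (SD, n = 3), which was 3.13-fold, 2.98-fold and 2.96-fold that of the distal stretch in the 3 columns. The log2 ratio was 1.60 ± 0.044. An exact permutation test that flips the signs of the column values gave a two-sided p of 0.25, the smallest that 3 columns allow. Of the neighbouring sequence 88.4% was listed, and 6.25% of its fragments had no reads, against 40.7% and 17.1% in the distal stretch. Because of this difference in listing, the log2 ratio was 2.72 per kb of sequence, against 1.60 per listed kb. It was smaller per listed fragment (1.31) and with fragment counts capped at the 99th percentile (1.40). The median fragment was 321 bp long in the neighbouring stretch and 402 bp in the distal stretch. A single 100 kb window, at 1.3 to 1.4 Mb, held 2395 of the 8880 neighbouring reads, at a density of 16.5, 19.3 and 18.5 in the 3 columns.

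The fall lay at the inner edge of the distal stretch. In the last 100 kb window before it, 1.9 to 2.0 Mb from the viewpoint, the density was 5.79, 6.2 and 5.23 in the 3 columns, with 72.7 kb listed. In the first window inside it, at 2.0 to 2.1 Mb, the density was 2.32, 2.29 and 2.57, with 53.2 kb listed. All 3 columns were lower inside the edge than outside it, with no overlap. The edge was set by the definition of the stretch, and no test was made of it.

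Within the distal stretch, contacts did not fall evenly with distance. By 1 Mb steps from 2 Mb outwards, the densities were 2.60 ± 0.096, 2.96 ± 0.27, 2.42 ± 0.12, 2.40 ± 0.25, 2.49 ± 0.20, 1.94 ± 0.29, 1.52 ± 0.24 and 1.53 ± 0.12 (SD, n = 3 each). The highest value was at 3 to 4 Mb, not nearest to the viewpoint, and the values from 4 to 7 Mb differed from each other by less than their SDs. Over 16 bins of 500 kb the slope of log10 density on log10 distance was -0.40, -0.36 and -0.57 in the columns, or -0.44 ± 0.11 (SD, n = 3). Per kb of sequence the slope was -1.44 ± 0.11, since the listed share itself fell from 55.03% at 2 to 3 Mb and 66.2% at 3 to 4 Mb to 16.7% at 9 to 10 Mb.

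**Figure D2:**
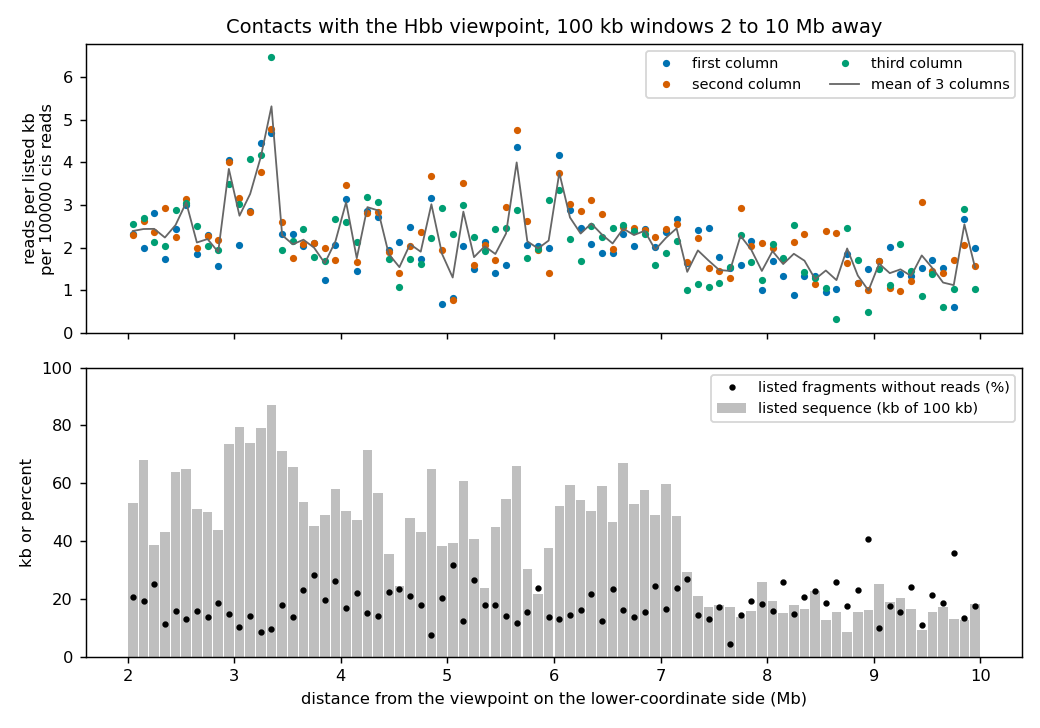
Windows of 100 kb from 2 to 10 Mb, by distance from the viewpoint. Top, density in each of the 3 columns (points) and their mean (line); bottom, listed sequence in kb of each 100 kb (bars) and the percent of listed fragments without reads (dots). The mean density peaks at 5.31 in the window at 3.3 to 3.4 Mb, and the listed sequence drops beyond 7.2 Mb, where no window has more than 29.4 kb.

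A second fall lay 7.2 Mb from the viewpoint, at chr7:103776215. This position was chosen after the windows had been seen, so the values on its sides are given without a test. The 52 windows nearer than 7.2 Mb held a median of 169 reads (53 to 616) summed over the columns and 21.8 to 86.9 kb of listed sequence. The 28 windows beyond it held a median of 38 reads (20 to 59) and 8.71 to 29.4 kb. The outer stretch makes up 2.8 of the 8 Mb but held 9.72% of the reads of the whole.

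The size of this fall depended on the denominator. Over the 1 Mb on either side of the position, 6.2 to 7.2 Mb had a density of 2.31 ± 0.19 and 7.2 to 8.2 Mb had 1.69 ± 0.22 (SD, n = 3). The ratio was 1.28, 1.35 and 1.51 in the 3 columns. Per kb of sequence it was 3.61, 3.804 and 4.27, because 54.5% of the inner and 19.3% of the outer sequence was listed. The percent of listed fragments without reads was 18.2 on the inner and 17.7 on the outer side. At the same distances on the opposite side of the viewpoint, the ratio per listed kb was 1.17, 1.04 and 1.13. Per kb of sequence it was 1.96, 1.74 and 1.90 there.

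The next question was which windows were contacted more or less often than their distance predicted. Expected reads came from a curve that may fall but not rise with distance, fitted to both sides of the viewpoint in each column. Per listed kb this curve changed little between 2.2 and 7.2 Mb, so there a window is compared with nearly the same level throughout. Windows were tested with edgeR's quasi-likelihood test over all 927 windows of the chromosome with at least 10 reads. All 80 windows of the distal stretch were tested. At a Benjamini-Hochberg adjusted p under 0.05, 5 windows (6.25%) were above the curve, where 5.29% of all windows tested were. Below it were 7 windows (8.75%), where 5.93% of all windows tested were. These shares are close to the background of the chromosome. The median log2 ratio of the 80 windows was -0.31, and that of all windows tested was -0.19.

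In most windows the 3 columns lay on the same side of the curve. In 10 windows all 3 columns were above the curve, in 46 all 3 were below, and in 24 they were mixed. The fitted log2 ratio was under 0 in 64 of the 80 windows and in 605 of all 927 tested. With most windows below, a shared side alone says little about the agreement of the columns. How often they share a side over the whole chromosome was not counted. Spearman correlations of the log2 ratio between pairs of columns were 0.50, 0.38 and 0.44 over the 80 windows, which share their fragments and are not replicates. Chi-square per degree of freedom between the columns was 1.87, where counting noise alone gives about 1. Windows with more listed sequence had higher ratios (Spearman 0.66 over the 80 windows), although listed sequence is already the denominator of the ratio.

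**Figure D3:**
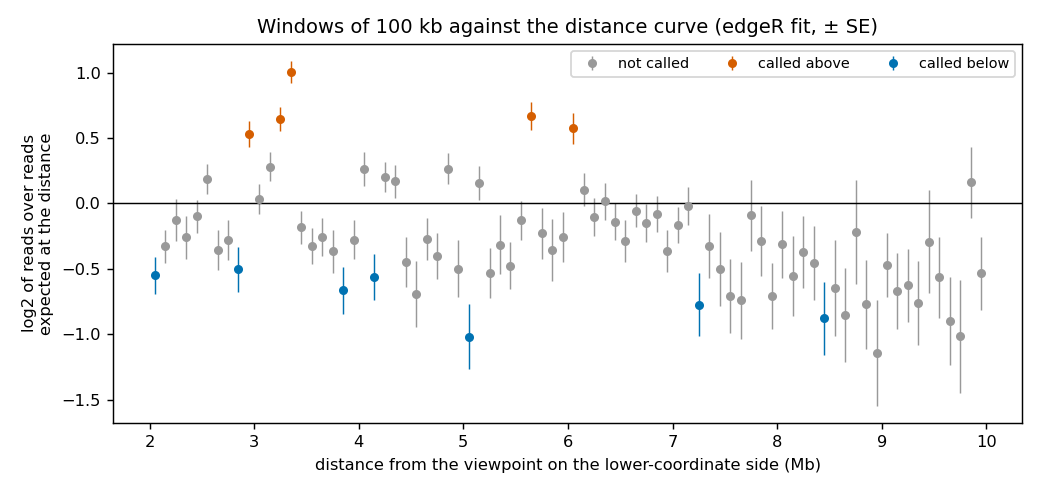
Fitted log2 of observed over expected reads for the 80 windows, by distance from the viewpoint. Points are edgeR fits with bars of ± SE, derived from the F value of the test and not from the 3 column values. The 5 windows called above the curve lie at 2.9 to 6.1 Mb, and the 7 called below it are spread from 2.0 to 8.5 Mb.

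Of the 5 windows above the curve, 3 lay within the 500 kb from 2.9 to 3.4 Mb (chr7:107576215-108076214). This stretch of 5 windows held 2064 reads, 19.1% of all reads of the 8 Mb, and none of its windows was below the curve. The window at chr7:107576215-107676214, 3.3 to 3.4 Mb away, had 201, 205 and 210 reads where 110, 114 and 86.3 were expected. All 3 columns were above the curve, with a ratio of 2.02 ± 0.36 (SD, n = 3). Its log2 ratio of 1.00 (SE 0.085, edgeR adjusted p 9.77e-15) was the highest of the 80 windows.

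The adjoining window, chr7:107676215-107776214, had 174, 147 and 123 reads where 100, 104 and 79.3 were expected. Its log2 ratio was 0.65 (SE 0.094, edgeR adjusted p 2.04e-07). At the other end of the 500 kb, chr7:107976215-108076214 had 147, 145 and 96 reads where 93.4, 98.0 and 76.2 were expected. Its log2 ratio was 0.53 (SE 0.10, edgeR adjusted p 4.82e-05). Both windows were above the curve in every column. The remaining windows between them were at log2 ratios of 0.28 and 0.035 and did not pass the test.

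Farther out, 2 single windows were above the curve. The window chr7:105276215-105376214, 5.6 to 5.7 Mb away, had 142 reads in the first, 154 in the second and 71 in the third column, where 81.1, 86.0 and 60.6 were expected. The third column was closest to its expectation. The log2 ratio was 0.67 (SE 0.11, edgeR adjusted p 1.58e-06). The window chr7:104876215-104976214, 6.0 to 6.1 Mb away, had 107, 96 and 65 reads where 64.0, 67.9 and 47.8 were expected. Its log2 ratio was 0.57 (SE 0.12, edgeR adjusted p 0.000188). Without the first column, which leaves 2 columns, the windows at 3.2 to 3.3 and 3.3 to 3.4 Mb passed. They were 2.5% of the 80, where 3.23% of all windows tested were above. Those at 2.9, 5.6 and 6.0 Mb did not (edgeR adjusted p 0.0701, 0.0800 and 0.113), at log2 ratios of 0.46, 0.59 and 0.47.

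The 5 windows above the curve had 52.0 to 86.9 kb listed, each a larger share than the 40.7% of the whole stretch. The mean of the 52 windows nearer than 7.2 Mb was 53.2 kb. Well listed windows were also left uncalled, such as that at 3.0 to 3.1 Mb with 79.6 kb. In the 5 windows above the curve, between 8.47% and 14.7% of the fragments had no reads, against 17.1% over all members. The 3 fragments with the most reads made up 6.53% to 12.53% of a window's reads, so no single fragment held the excess. Without the 3 fragments with the most reads in every window, an alternative added after seeing the data, all 5 were still called above the curve.

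The 7 windows below the curve did not adjoin each other. The lowest was chr7:105876215-105976214, 5.0 to 5.1 Mb away, with 16 reads in the first, 15 in the second and 34 in the third column, where 48.4, 51.4 and 36.2 were expected. The first and second columns were far below their expectation and the third was close to it. The log2 ratio was -1.02 (SE 0.25, edgeR adjusted p 0.00201). It was -1.69 without the third column, and without the first or the second it did not pass, with edgeR adjusted p of 0.340 and 0.187.

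In the outer part, chr7:102476215-102576214 (8.4 to 8.5 Mb) had 15, 13 and 11 reads where 25.3, 27.9 and 18.8 were expected, at a log2 ratio of -0.88 (SE 0.28, edgeR adjusted p 0.0258). The window chr7:103676215-103776214, directly beyond the position at 7.2 Mb, had 24, 24 and 11 reads where 35.5, 37.9 and 26.5 were expected. Its log2 ratio was -0.77 (SE 0.24, edgeR adjusted p 0.0217). Beyond 7.2 Mb, 27 of the 28 windows had a log2 ratio under 0, with a median of -0.60, and 13 had an unadjusted p under 0.05. Over all 927 windows tested these counts were 605 and 244. Of the 28, the windows at 8.4 and 7.2 Mb passed the adjusted test, and each of the 28 held 20 to 59 reads.

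Nearer to the viewpoint, chr7:107076215-107176214 (3.8 to 3.9 Mb) had 30, 48 and 31 reads where 61.7, 64.1 and 46.8 were expected, at a log2 ratio of -0.66 (SE 0.18, edgeR adjusted p 0.00641). The window chr7:106776215-106876214 (4.1 to 4.2 Mb) had 34, 39 and 38 reads where 59.0, 61.9 and 44.4 were expected, at -0.56 (SE 0.18, edgeR adjusted p 0.0256). The innermost window, chr7:108876215-108976214, just inside the fall at 2 Mb, had 61, 60 and 51 reads where 88.7, 91.9 and 71.5 were expected, at -0.55 (SE 0.14, edgeR adjusted p 0.00338). The curve at this window also draws on the denser sequence nearer than 2 Mb, so this call and the fall at 2 Mb are not independent. With the curve of the distal stretch alone the innermost window was at -0.37 and did not pass (edgeR adjusted p 0.0962). The window chr7:108076215-108176214 (2.8 to 2.9 Mb) had 34, 47 and 32 reads where 55.6, 58.6 and 45.9 were expected, at -0.50 (SE 0.17, edgeR adjusted p 0.0478), and it adjoined the high window at 2.9 to 3.0 Mb. All 7 windows were below the curve in every column. Without the first column none of the 80 windows passed below the curve (11 at an unadjusted p under 0.05), without the second 2 did, of the 7 only that at 3.8 to 3.9 Mb. Without the third column 10 did, with 5 of the 7 among them and those at 7.2 to 7.3 and 2.8 to 2.9 Mb lost. Of all windows tested, 1.81% were below the curve without the first column, 3.66% without the second and 6.97% without the third.

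The number of windows below the curve depended on how the curve was made. A straight log-log line gave 4 windows above and 22 below, where 7.01% and 5.72% of all windows tested were. A curve fitted to the distal stretch alone gave 6 and 5, where 13.1% and 1.83% of all were. Per kb of sequence 19 were above and 47 below, where 27.5% and 41.6% of all windows tested were. Per listed fragment 5 were above and 3 below, where 4.85% and 2.37% of all were. All 5 windows above the curve were also called above it per kb of sequence, per listed fragment and with the curve of the distal stretch alone, and 4 of them with the straight line. With that line the window at 2.9 to 3.0 Mb was at a log2 ratio of 0.23 (edgeR adjusted p 0.118). Of the 7 windows below it, all were called below per kb of sequence and with the straight line, 3 with the curve of the distal stretch alone and 2 per listed fragment. With the curve of the distal stretch alone, the windows at 8.4 and 7.2 Mb were at log2 ratios of -0.35 and -0.46 (edgeR adjusted p 0.557 and 0.257). No run of 3 or more adjacent windows called in 1 direction was found, and the longest was the pair at 3.2 to 3.4 Mb.

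At a finer scale, 3 of the high windows each held a place of about 10 kb with many reads. These places were picked for their counts among the 585 windows of 10 kb with at least 2 kb listed, so they are described without a test. The median such window held 13 reads, and the median listed sequence was 4.99 kb. The 3 places had 10.0, 10.1 and 9.53 kb listed, so a part of their lead in reads goes with their listing. The highest, chr7:107606215-107616214, 3.365 Mb from the viewpoint, had 53, 47 and 63 reads in the 3 columns. Its density was 12.3 ± 3.92 (SD, n = 3), against 3.08 ± 0.089 in the sequence 25 to 100 kb to either side. All of its 22 fragments had reads, and the fragment with the most held 13.5% of them. A shoulder lay in the adjoining window on the viewpoint side, chr7:107616215-107626214, with 36, 41 and 34 reads.

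The second place was chr7:105316215-105326214, 5.655 Mb from the viewpoint, with 67, 56 and 30 reads. Its density was 13.5, 11.3 and 7.97 in the 3 columns, against 1.58, 2.74 and 1.39 at 25 to 100 kb. It stood 8.51-fold, 4.12-fold and 5.71-fold above these flanks, and all of its 21 fragments had reads. The third column was the lowest at the centre and the second the highest in the flanks.

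The third place was chr7:107986215-107996214, 2.985 Mb from the viewpoint, with 41, 38 and 44 reads. Its density of 9.71 ± 2.30 stood 4.11-fold, 2.70-fold and 5.59-fold above its flanks in the columns, and all of its 27 fragments had reads. The third column was highest both here and at 3.365 Mb, and lowest at 5.655 Mb. After these places and the shoulder, the window with the most reads was chr7:106126215-106136214, 4.84 to 4.85 Mb away, with 32, 31 and 15 reads. The 10 windows of 10 kb with the most reads together held 1004 reads, 9.29% of those of the distal stretch.

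**Figure D4:**
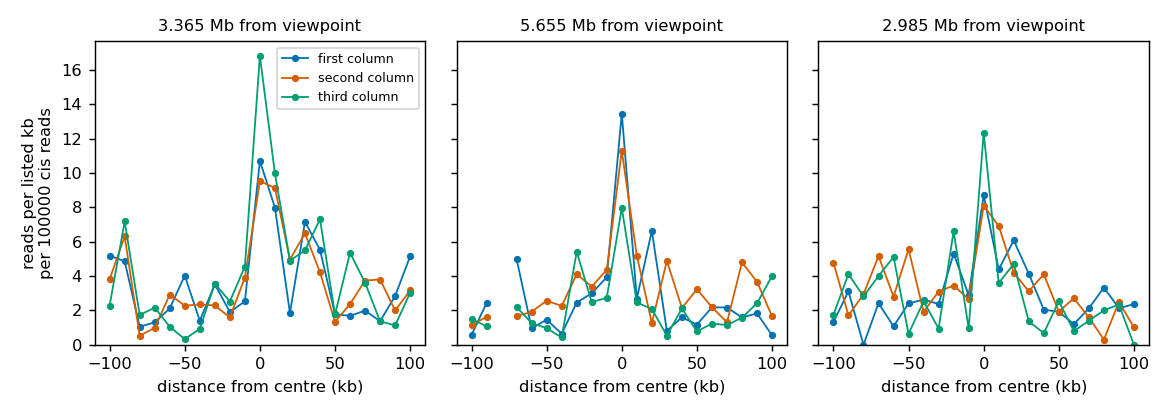
Density in 10 kb windows within 100 kb of the 3 places with the most reads that are at least 100 kb apart, by distance from the centre of each place; lines are the 3 columns, and windows with under 2 kb listed are left out. The central windows reach 7.97 to 16.8 in single columns, above every window shown around them in the same column.

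Most of the fragments with the most reads lay in these places. The first by reads, chr7:107614808-107615566, had 6, 2 and 14 reads, and the fragment adjoining it, chr7:107615567-107616223, had 7, 8 and 6. The third column held most of the reads of the former, while the latter was even over the columns. In the place at 5.655 Mb lay 5 of the 8 fragments listed. The list ends in a tie, since 5 fragments had 13 reads and the 2 at the lowest coordinates were taken. Of the 3 tied fragments left out, chr7:105326079-105327878 has its midpoint just outside the place at 5.655 Mb, chr7:107610065-107611763 lies in the place at 3.365 Mb and chr7:105804857-105805546, 5.17 Mb away, lies in none of them. The highest at 5.655 Mb, chr7:105322776-105323200, had 7, 11 and 0 reads. Its neighbour chr7:105323201-105323609 had 7, 3 and 3, so the fragment without reads in the third column was not part of a gap there. The others were chr7:105324500-105324803 with 6, 6 and 2 reads, chr7:105325696-105325918 with 8, 5 and 1 and chr7:105324804-105325563 with 4, 7 and 2. In all 5 the third column was lowest or shared the lowest value.

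Of the 8 listed, chr7:108466273-108466847, 2.51 Mb from the viewpoint, lay apart from the 3 places. It had 9, 5 and 4 reads. Within 5 kb of it the other fragments held 6.58 reads per listed kb summed over the columns, against 3.29 at 10 to 100 kb. It lay just outside the 10 kb window chr7:108456215-108466214, which held 21, 39 and 16 reads and was highest in the second column.

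By chi-square per degree of freedom, the columns differed most in 2 windows at 4.9 to 5.1 Mb (11.1 and 9.97). In the window chr7:105976215-106076214, 4.9 to 5.0 Mb away, they had 13, 37 and 42 reads, where their summed depth in the distal stretch predicts 31.96, 34.6 and 25.4. The window next to it at 5.0 to 5.1 Mb, the lowest of the called windows, had 16, 15 and 34 reads where 22.6, 24.5 and 17.9 are predicted. The first column was low in both and the third high in both. Next came the 2 windows with the highest log2 ratios, at 3.3 to 3.4 Mb (6.64) and 5.6 to 5.7 Mb (6.27). In the former the third column had 210 reads where 170 are predicted, and in the latter 71 where 101 are. The columns thus also differed in size at these high windows, though all 3 were above the curve. The 500 kb bin at 5.0 to 5.5 Mb had the largest spread of the 16 bins, with a density of 1.58, 2.08 and 2.48 in the 3 columns.

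The last comparison set the distal stretch against the same distances on the opposite side of the viewpoint, the side of the LCR. Over 2 to 10 Mb the opposite side had a density of 2.47, 2.58 and 2.40, or 2.49 ± 0.090 (SD, n = 3), against 2.44 ± 0.10. The log2 ratio of the distal stretch over the opposite side was -0.082, -0.025 and 0.028 in the columns, or -0.026 ± 0.055 (exact sign-flip permutation p = 0.75, two-sided, n = 3). The sign differed between columns, so the density per listed kb over the 8 Mb did not differ beyond their spread. In reads, the distal stretch held 3753, 4067 and 2983 and the opposite side 3699, 3855 and 2725, fewer in every column. Per kb of sequence the log2 ratio was 0.076 ± 0.055 (SD, n = 3).

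By distance the sides did differ. The edgeR test with the column as a block, over 82 bins of 500 kb, called 2 of the 16 bins higher in the distal stretch, where 13.4% of all bins were called in that direction. It called 4 lower, where 20.7% of all bins were. The shares are again close to the background. At 3.0 to 3.5 Mb, the bin that holds 2 of the 5 high windows, the distal stretch had 3.33, 3.48 and 4.02 and the opposite side 1.99, 1.90 and 1.53. The log2 ratio was 0.98 (SE 0.11, edgeR adjusted p 7.7e-15), the largest of the 16 bins in either direction. The bin at 4.0 to 4.5 Mb was at 2.59 ± 0.082 here and 1.95 ± 0.15 opposite (log2 ratio 0.41, SE 0.14, edgeR adjusted p 0.0126). It did not pass without the first column (log2 ratio 0.38, edgeR adjusted p 0.0724), without the second (0.40, edgeR adjusted p 0.157) and with DESeq2 (0.41, adjusted p 0.205), so its size hardly moved. The 5 other bins passed in each of these 3 fits and without the third column.

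The bins lower in the distal stretch lay near its inner edge and in its outer part. At 2.5 to 3.0 Mb the log2 ratio was -0.34 (SE 0.098, edgeR adjusted p 0.00232), at 2.76 ± 0.077 here and 3.51 ± 0.19 opposite. That bin holds the high window at 2.9 to 3.0 Mb, so not all high windows lay in bins above the opposite side. At 6.5 to 7.0 Mb the log2 ratio was -0.46 (SE 0.11, edgeR adjusted p 0.000533). At 7.0 to 7.5 Mb, the bin that holds the fall at 7.2 Mb, it was -0.59 (SE 0.11, edgeR adjusted p 7.12e-06). In that bin the distal stretch had 2.35, 2.23 and 1.64 and the opposite side 2.89, 3.32 and 3.18, without overlap. The outermost bin, at 9.5 to 10.0 Mb, was at 1.55 ± 0.20 here and 2.52 ± 0.15 opposite (log2 ratio -0.69, SE 0.16, edgeR adjusted p 0.000211). Listed sequence differed between the sides as well, with 391 against 154 kb at 3.0 to 3.5 Mb and 76.6 against 183 kb at 9.5 to 10.0 Mb. Its part in the differences was not tested. Per kb of sequence the log2 ratios of these 2 bins were 2.33 and -1.94, and 4 bins were higher and 8 lower in the distal stretch. The shares over all bins of the chromosome were not taken per kb of sequence. The bin at 6.5 to 7.0 Mb was no longer called per kb of sequence (log2 ratio -0.038, edgeR adjusted p 0.758).

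**Figure D5:**
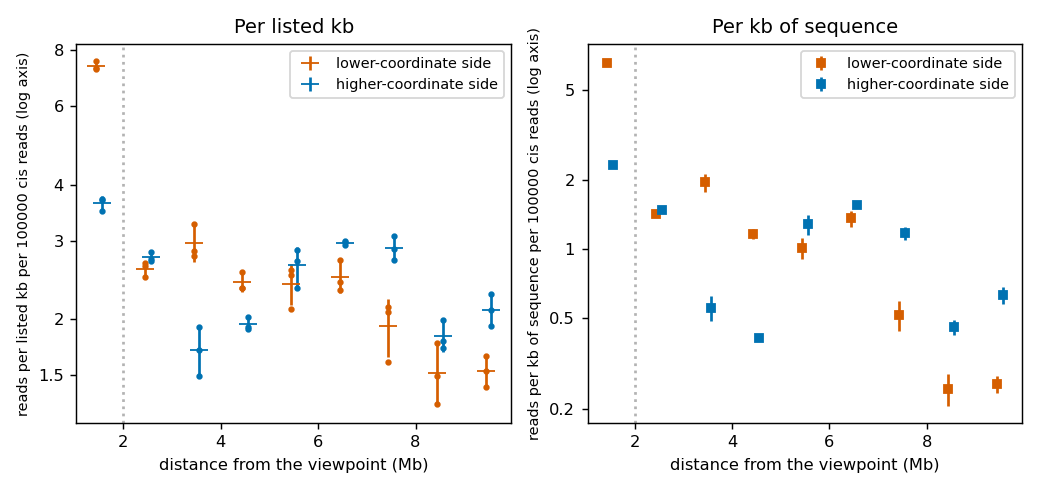
Density by 1 Mb of distance on both sides of the viewpoint, per listed kb (left, with the 3 columns as points) and per kb of sequence (right), on log axes; marks are means and bars SD over the 3 columns, and the dotted line marks 2 Mb. At 3 to 4 Mb the lower-coordinate side is higher (2.96 against 1.71 per listed kb), as it is at 4 to 5 Mb, and its means are lower at 2 to 3 Mb and from 5 Mb outwards, with columns that overlap between the sides at 5 to 6 and 8 to 9 Mb.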

How the data were processed

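The authors deposited unnormalized read counts for the listed DpnII fragments of chromosome 7. The 3 count columns were used as samples of 1 group, and 0 other sample columns were present. The submitters' processing notes name Trim Galore, Bowtie2 and mm9. Junction counting, read filters and the rule by which fragments were listed are not given in the sources used here. Fragments were assigned by midpoint. The distance curve was an isotonic regression (scikit-learn 1.9.0) through 10 distance bins per decade, per column, from 200 kb outwards, multiplied by the listed kb of a window. Windows were tested with edgeR 4.0.16, with the expected reads as offset and the quasi-likelihood F computed from its deviances, because glmQLFTest takes no model of 1 term. The sides were compared with glmQLFTest. Each SE printed with a log2 ratio is the absolute log2 ratio divided by the square root of F. It is not the standard error of the 3 column values. For the window at 3.3 to 3.4 Mb the edgeR adjusted p was 9.77e-15 in the main fit and 1.92e-29 with no filter on reads. The log2 ratio was 1.00 in both, so the size of such a p-value does not measure the spread of the 3 columns alone. On simulated data over 857 windows the window test called 80% of 2-fold rises and 62.5% of falls to 0.5-fold. It called 36% of 1.5-fold rises, 20% of falls to 0.667-fold and 0 of 677 unchanged windows. The simulated counts were drawn around the fitted curve itself with a fixed spread. They therefore cannot show false calls where the curve fits badly. Alternatives included DESeq2 1.42.0. The windows named are the called ones (at most 6 in each direction, and the seventh below), and the fragments named are the 8 with the most reads, ties taken by lowest coordinate. The rule for the stretch uses position alone among the listed fragments, but the stretch, and the lists, were chosen with earlier results of these data known.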

Additional observations from a re-analysis of the deposited data

How the results depend on the processing

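No paired analysis was possible because there is 1 group, so no replicate numbers are shared between groups; positions were compared within columns. No named window changed direction under any of its 16 alternatives, and over the 12 named windows the call was kept in 151 and lost in 41 of the fits. The log2 ratio of the sides reversed to 0.076 per kb of sequence and, leaving out 1 column, ranged from -0.053 to 0.0013. The share of reads was 12.51% with capped fragment counts and 8.92% over reads more than 5 kb away. The density was 0.993 per kb of sequence, 1.27 per listed fragment and 3.84 with capped counts, and the slope was -1.44 per kb of sequence. Windows above the curve made up 23.8% (27.5% of all windows tested) per kb of sequence. Leaving out 1 column, they made up 2.5% to 7.5% (3.23% to 6.36% of all windows tested). Windows below it, with the share of all windows tested in parentheses, made up 2.58% (4.12%) and 30% (10.5%) with windows of 50 and 200 kb, 27.5% (5.72%) with a straight line, 58.8% (41.6%) per kb of sequence, 3.75% (2.37%) per listed fragment, 3.75% (3.13%) with DESeq2, 22.2% (16.3%) with a minimum of 30 reads, 5% (3.78%) with capped counts, 15% (7.89%) with the viewpoint 14 kb lower, 17.5% (10.5%) without the 3 fragments with the most reads, and 0% to 13% leaving out 1 column. Of all windows tested, 1.81% to 6.97% were below the curve leaving out 1 column. The sides differed in 37.5% of the 16 bins in the main fit, 62.5% of 1 Mb bins and 75% of bins per kb of sequence. Shares over all bins of the chromosome were taken in the main fit only (13.4% higher and 20.7% lower). The shares in the other settings are therefore not read as a trait of this stretch. The causes were not tested. The 28 windows beyond 7.2 Mb held 20 to 59 reads each, and 2 of them passed; how the calls depend on depth was not tested.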
